A study of Homo sapiens with 11 samples.

Results

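HK2 cells derive from human proximal tubule, the segment of the nephron that reclaims most filtered solutes, and were immortalised with papillomavirus oncogenes. The RNA-seq samples were the 2 of the 11 samples in the series whose titles name RNA-seq, replicates 1 and 2, called library 1 and library 2 here; the others are ChIP-seq of H3K4me3, H3K27ac and H3K27me3, input DNA and H3K27ac HiChIP of the same cells. The study set out to map regulatory elements of tubular cells and to link kidney disease variants to target genes. All samples share 1 condition, HK2 cells in DMEM-F12 with 10% fetal bovine serum, 1% penicillin-streptomycin and 0.05% DMSO. No treated or untreated group was therefore compared, and the only spread to be had is that between the 2 libraries, which may be technical because nothing says that they came from separate cultures.

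A human gene usually gives rise to several transcripts, which differ in where transcription starts, which exons are spliced in and where the RNA ends. Short reads cover only a piece of a transcript, so the level of each transcript is estimated from how reads are spread over exons and junctions, and near-identical transcripts are hard to separate. Values are in TPM, the abundance of a transcript per unit of its length, scaled to the same total in each library, and a gene's TPM is the sum over its transcripts.

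Both libraries listed the same 200401 annotated transcripts of 58288 genes. The aligned coverage summed to 4.54 Gb over transcripts in library 1 and 4.42 Gb in library 2, so that 1 TPM stood for a mean coverage of 2.06 and 1.98 reads per base. A TPM above 0 was given to 108334 and 107651 transcripts. A gene was counted as expressed at a summed TPM of at least 1 in both libraries, which 15389 genes reached. Among them were 12532 of 19677 protein-coding genes (63.7%) with a median of 27.4 TPM, and 1437 of 14165 long non-coding RNA (lncRNA) genes (10.1%) with a median of 3.06 TPM. At least 10 TPM was reached by 9933 genes, 100 TPM by 1703 and 1000 TPM by 117, and 30097 genes were listed at 0 in both libraries.

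The labelled cell type was read from marker genes. All 6 genes of the renal epithelium list were expressed, among them the nephron transcription factor PAX8 (276 and 290 TPM in libraries 1 and 2) and the injury marker HAVCR1 (232 and 236 TPM). Of the list, PAX2 (1.02 and 1.11 TPM) and VCAM1 (1.31 and 1.49 TPM) stood only just above the limit. Only 4 of the 15 proximal tubule genes were expressed, GGT1, MME, GPX3 and SLC5A2. At 0 in both libraries were 6, among them the endocytic receptor LRP2, the transporters SLC5A1, SLC22A6 and SLC22A8 and the transcription factor HNF4A. The phosphate transporter SLC34A1 stood at 0.149 and 0.458 TPM and the glucose transporter SLC5A2 at 4.31 and 6.57 TPM, so most defining genes of the mature proximal tubule were absent or low. Epithelial keratins were present, with KRT8 at 493 and 513 TPM, while CDH1 (E-cadherin) stood at 0.579 and 0.788 TPM and CDH2 (N-cadherin) at 164 and 166 TPM. Of 7 mesenchyme genes 5 were expressed, and of 4 podocyte genes only PODXL. Lists for the loop of Henle and distal nephron and for endothelium had 0 of 4 genes expressed each, and of the 4 immune genes only CD68, a lysosomal protein, was expressed.

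The most abundant gene was GAPDH, a glycolytic enzyme, with 14774 and 14916 TPM, or 1.48% of all TPM in library 1 and 1.49% in library 2. It lies on chromosome 12 from 6533927 to 6538374 of GRCh38. It was followed by FTL (ferritin light chain, an iron store) with 10689 and 10516 TPM, and by TMSB10 and TMSB4X, which bind monomeric actin, with 9421 and 9197 TPM and with 8967 and 8543 TPM. FN1, the matrix protein fibronectin, came next with 6431 and 6518 TPM. The values of these 5 genes did not overlap between neighbours in rank. EEF1A1, the elongation factor that brings transfer RNA to the ribosome (6303 and 6614 TPM), overlapped with FN1, so their order was not resolved. ENO1 (glycolysis), ACTB (actin), MT2A (a metal-binding metallothionein) and RPL12 completed the 10 most abundant, and ENO1 (5366 and 5193 TPM) and ACTB (5160 and 5191 TPM) were close to each other in library 2.

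The 10 most abundant genes held 7.63% of TPM in library 1 and 7.56% in library 2. The first 100 held 26.2% and 25.9%, and 648 and 673 genes were enough for 50% of all TPM. All 20 of the most abundant genes were protein coding, and 9 of them encode cytosolic ribosomal proteins. Of the 87 ribosomal protein genes and close paralogues by symbol, 84 were expressed, and together they took 12.5% and 12.4% of TPM.

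**Figure D1:**
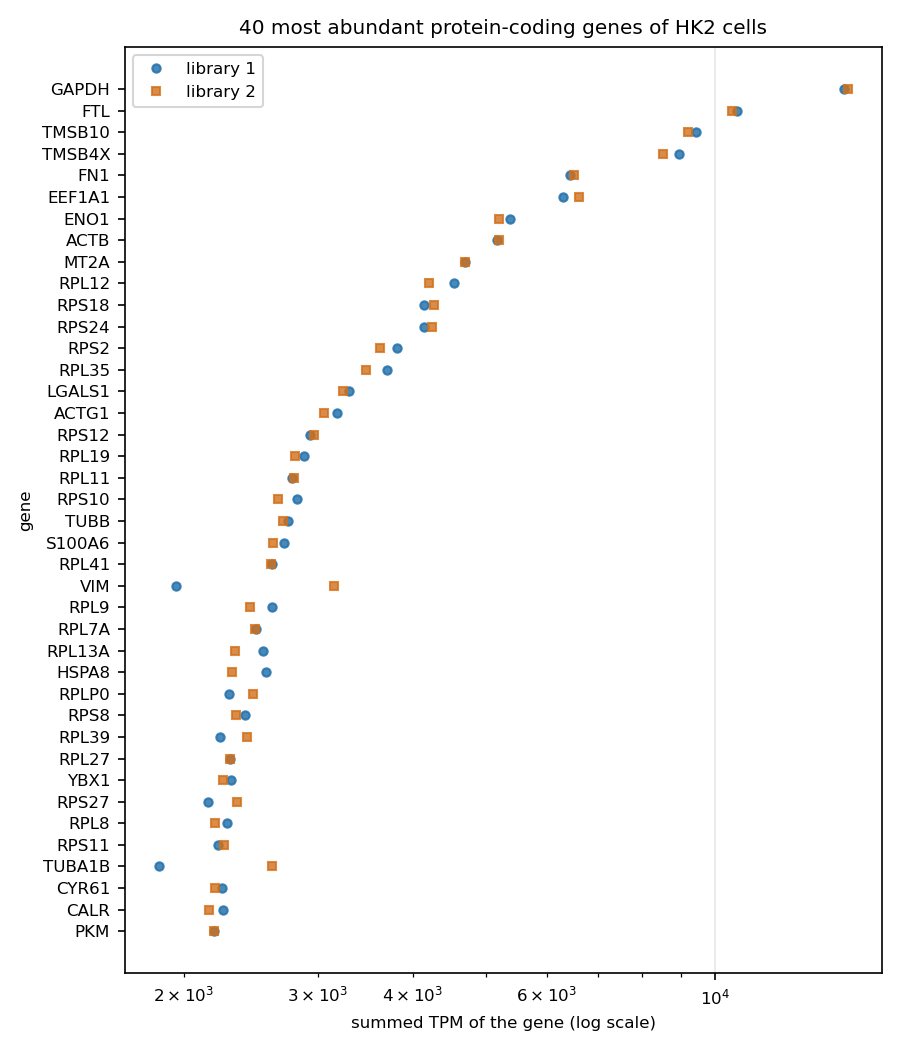
The 40 most abundant protein-coding genes in HK2 cells, with the summed TPM of each gene on a log axis and 1 point for each library. GAPDH stands first at 14774 and 14916 TPM, 20 of the 40 are ribosomal protein genes, and the points of VIM (1954 and 3150 TPM) and TUBA1B (1858 and 2614 TPM) lie farthest apart.

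Messenger RNAs for ribosomal proteins and elongation factors typically start with a C followed by a run of pyrimidines, the terminal oligopyrimidine tract through which their translation is controlled. RefSeq promoters (GRCh38.p14) of the nuclear protein-coding genes were therefore read for a C at the annotated start followed by 4 bases that are each C or T, on the sense strand only. The stretch from 40 bases before to 20 bases from the start is shown for 4 abundant translation genes that have these letters and 4 other abundant genes that lack them, each with its RefSeq start within 50 bases of the start of a transcript in use (10% or more of the gene TPM in both libraries), with the first 5 transcribed bases in capitals.
EEF1A1, chr6:73521013-73521072, minus strand: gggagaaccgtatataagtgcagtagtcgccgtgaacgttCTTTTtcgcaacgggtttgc
RPL12, chr9:127451387-127451446, minus strand: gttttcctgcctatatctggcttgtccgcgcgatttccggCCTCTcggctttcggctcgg
RPL35, chr9:124861938-124861997, minus strand: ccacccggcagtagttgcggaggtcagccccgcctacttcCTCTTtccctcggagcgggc
RPS24, chr10:78033823-78033882, plus strand: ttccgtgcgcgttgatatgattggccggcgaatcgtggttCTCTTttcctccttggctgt
FTL, chr19:48965269-48965328, plus strand: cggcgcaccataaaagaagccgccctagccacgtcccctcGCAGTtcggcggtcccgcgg
TMSB10, chr2:84905616-84905675, plus strand: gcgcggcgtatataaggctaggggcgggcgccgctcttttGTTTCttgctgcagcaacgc
FN1, chr2:215436049-215436108, minus strand: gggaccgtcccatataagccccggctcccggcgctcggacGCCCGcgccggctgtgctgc
ENO1, chr1:8878667-8878726, minus strand: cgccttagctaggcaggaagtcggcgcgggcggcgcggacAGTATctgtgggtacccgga

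Of the 100 most abundant genes, 79 were in the promoter table and 28 of those (35.4%) had the letters, against 15.1% of the genes ranked 101 to 500, 7.26% of ranks 501 to 1000, 5.28% of ranks 1001 to 5000 and 4.52% of ranks 5001 to 12000. Of all 35116 promoters in the table, 4.07% had them. Within the 100 most abundant genes, 25 of 36 ribosomal protein promoters (69.4%) held the letters and 3 of 43 others (6.98%). A TATAAA between 40 and 20 bases before the start, on the sense strand, was in 8.86% of the first 100 genes and 1.21% of ranks 5001 to 12000, beside 2.30% of all promoters. Within the first 100 it was in 1 of 36 ribosomal protein promoters (2.78%) and 6 of 43 others, which are small counts. A match describes letters in this window and does not show that a factor acts there. The RefSeq start was often not a start in use: it lay within 50 bases of one in 45 of the 79 genes, and in GAPDH it lay 723 bases from the nearest. With genes restricted to those within 50 bases, the letters were in 44.4% of the first 100 and 4.21% of ranks 5001 to 12000.

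**Figure D2:**
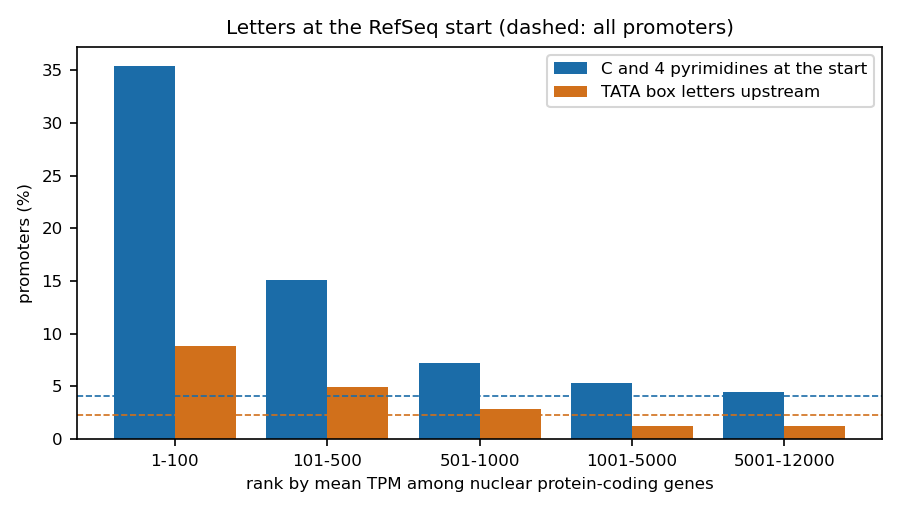
Share of RefSeq promoters, in percent, with a C and 4 pyrimidines at the start or with TATAAA upstream, for nuclear protein-coding genes by rank of mean TPM, with dashed lines for all promoters in the table. The pyrimidine start falls from 35.4% in the first 100 genes to 4.52% in ranks 5001 to 12000, near the 4.07% of all promoters.

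Protein-coding genes held 95.4% of TPM in library 1 and 95.7% in library 2 (95.6% ± 0.232, SD, n = 2). lncRNA genes held 1.34% and 1.39%, processed pseudogenes 0.904% and 0.959%, and unprocessed pseudogenes 0.672% and 0.670%. Genes that matched no annotated type held 1.03% and 0.600%, the pair of chromosome 21 loci given with the library ratios among them. The highest lncRNA genes were LRRC75A-AS1, a snoRNA host, with 807 and 713 TPM, AC011603.2 with 533 and 719 TPM, and the snoRNA host GAS5 with 369 and 352 TPM. AC011603.2, annotated as TUBA1B-AS1, lies on the strand opposite TUBA1B and overlaps it, and whether their reads were told apart by strand is not given in the sources used here. The nuclear RNAs MALAT1 (59.1 and 67.7 TPM) and NEAT1 (11.5 and 17.0 TPM), chosen after their values were seen, were far lower. EEF1A1P5, with 1378 and 1514 TPM, led the processed pseudogenes, a class that arises as copies of messenger RNAs. How reads were divided between it and EEF1A1 was not tested.

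All 37 genes of the mitochondrial genome, 13 protein-coding genes and both ribosomal RNAs among them, were listed at 0 in both libraries. Nuclear copies of the same genes were not: MTATP6P1 on chromosome 1 had 2645 and 2516 TPM, MTCO1P12 1437 and 1436 TPM, and MTND2P28 1096 and 1105 TPM. Of 404 such copies by name, 10 were expressed, and all 404 together held 0.566% and 0.561% of TPM. Why the mitochondrial genes were listed at 0 was not tested, so the 0 is not read as a level here. Such copies derive from mitochondrial DNA, and how reads were divided between them and the mitochondrial genes was not tested.

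Of the expressed genes, 2469 had a single annotated transcript and 12920 had at least 2, with a median of 7. A transcript was called in use where it held 10% or more of the gene's TPM in both libraries. By that rule 5709 genes used 1 transcript (44.2%), 4873 used 2 (37.7%), 1745 used 3 (13.5%) and 372 used more, so that 6990 genes (54.1%) had at least 2 in use. In 221 genes no transcript passed in both. With the rule set at 20% or more, 2861 genes had at least 2 in use. The dominant transcript, the one with the highest TPM of its gene, held a median of 62.9% of the gene in library 1 and 63.3% in library 2.

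The protein-coding genes with the most transcripts in use had 5 or 6 of them. ANKLE2, a nuclear envelope protein, spread over 6 transcripts that held from 10.7% to 21.3% each in library 1 and from 10.8% to 20.2% in library 2. PPT2-EGFL8, a read-through of neighbouring genes, also used 6, at only 5.43 and 6.33 TPM. PRKCSH (glucosidase II beta subunit), the kinase IRAK1 and the mitotic kinase AURKA used 5 each. At the other end, 1840 genes (14.2%) gave 90% or more of their TPM to the same transcript in both libraries, such as GLUD1-201 of glutamate dehydrogenase with 98.8% and 99.1%, EZR-202 of ezrin with 97.8% and 94.2%, and TMSB4X-204 with 98.4% and 98.3%.

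The same transcript was dominant in both libraries in 10020 of the 12920 genes (77.6%, Wilson 95% interval 76.8 to 78.3%, which treats genes as independent and covers counting error only). Agreement went with level: it was 66.4% at a mean of 1 to 2 TPM, 77.7% at 10 to 50 TPM and 86.6% from 100 TPM. It went more steeply with the dominant share itself. Where the dominant transcript held under 30% of the gene in library 1, 43.8% of genes agreed, against 95.6% where it held 90% or more. With 2 annotated transcripts 92.4% of genes agreed, and with more than 20 it was 59.1%.

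**Figure D3:**
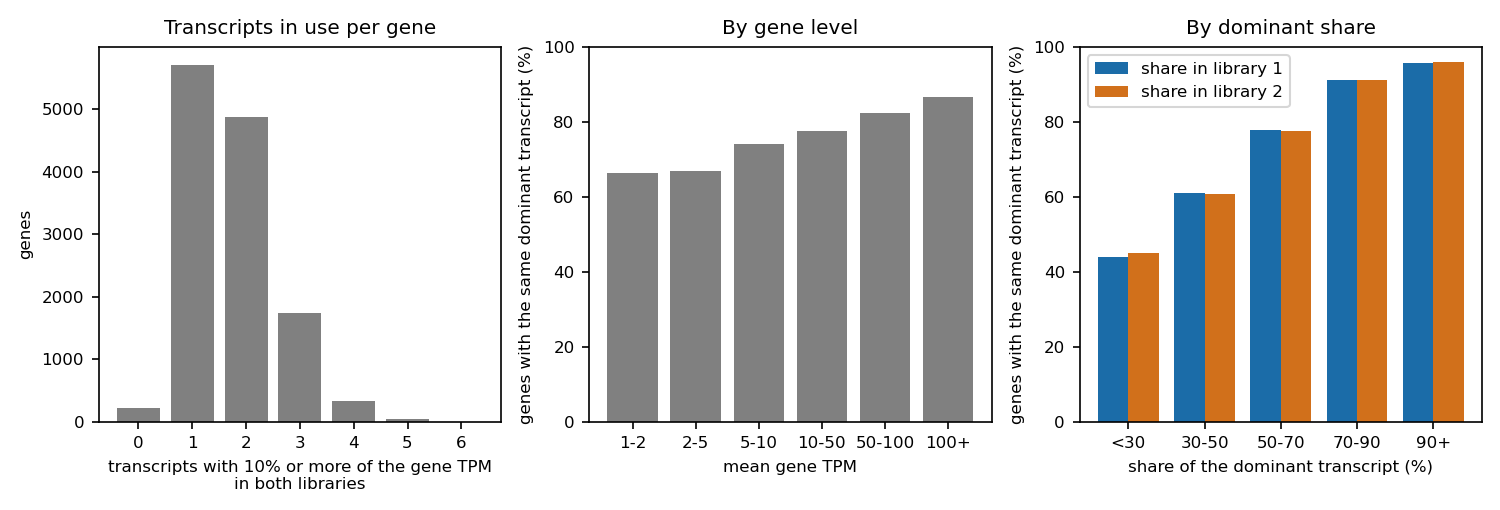
Left, number of genes by how many of their transcripts held 10% or more of the gene TPM in both libraries. Middle and right, percent of genes with the same dominant transcript in both libraries, by mean gene TPM and by the dominant share, where agreement rises from 43.8% for shares under 30% to 95.6% for shares of 90% or more in library 1.

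In the 2900 genes whose dominant transcript differed, the exons of the pair overlapped over a median of 93.2% of the shorter transcript, and in 1144 genes (39.4%) their starts lay within 100 bases. The larger change in share within the pair had a median of 33.0 percentage points and exceeded 50 points in 718 genes (24.8%). In genes that agreed, the share of the common leader changed by a median of 4.37 points. The groups were set by whether the leader changed, and the measures differ, so a wider change in the first is built in. VIM, the intermediate filament vimentin, gave 81.9% of its TPM to VIM-209 in library 1 and 0.110% in library 2, while VIM-201 went from 0.994% to 76.0%. These VIM transcripts share 1867 bases, 99.9% of the shorter one. FN1 gave 45.0% to FN1-204 in library 1 and 11.1% in library 2, where FN1-213 led with 27.3%. Another transcript also came first in the ribosomal protein genes RPLP0, RPL10 and RPS6, where the leading transcript of library 1 went from 37.7% to 29.0%, from 31.5% to 0.904% and from 55.2% to 46.1%.

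The shifts were largest in TRIM32, MAPK8IP1, ZNF184, PCGF2 and AHNAK among genes of at least 10 TPM. TRIM32, a ubiquitin ligase, gave 98.1% to TRIM32-201 in library 1 and almost all of its TPM to TRIM32-203 in library 2, and the starts of these transcripts lie 28 bases apart. AHNAK, a giant scaffold protein, gave 98.0% to AHNAK-202, a transcript of 18787 bases, in library 1, and 85.6% to AHNAK-203, of 793 bases, in library 2. Its summed TPM was 315 and 168, a log2 ratio of library 2 to library 1 of -0.90, while the log2 ratio of its covered bases was -4.38. The TPM and the covered bases of AHNAK thus moved by different amounts, and which transcript the cells held was not tested.

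Agreement was also read from start sites and single exons. Starts less than 5 kb apart were joined into start groups, and 7578 expressed protein-coding genes had at least 2 of these. The leading start group was the same in both libraries in 7140 of them (94.2%), and the dominant transcript in 75.8% of the same genes. For single exons, inclusion was taken as the percent of the TPM of transcripts spanning an exon that lies in transcripts holding it. Over 17474 exons with a mean inclusion of 10 to 90% in protein-coding genes of at least 10 TPM, the median difference between libraries was 5.90 points, and 66.9% differed by at most 10 points. Over 17872 transcripts of the same genes with a mean share of 10 to 90% these were 6.09 points and 65.4%.

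PKM, pyruvate kinase, carries a pair of exons of which a transcript takes 1, and the exons give the M1 enzyme of muscle or the M2 enzyme of growing cells. Both exons are 167 bases long and lie on the minus strand of chromosome 15, the M1 exon at chr15:72203022-72203188 and the M2 exon at chr15:72202454-72202620 (GRCh38). They are shown as read from GENCODE v44 transcripts, 5′ to 3′, with the bases at which they differ in capitals; 105 of 167 positions (62.9%) are the same.
PKM M1 exon: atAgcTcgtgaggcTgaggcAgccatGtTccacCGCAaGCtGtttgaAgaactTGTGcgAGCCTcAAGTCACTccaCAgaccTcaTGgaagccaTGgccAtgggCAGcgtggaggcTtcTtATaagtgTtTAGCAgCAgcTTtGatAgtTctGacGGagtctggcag
PKM M2 exon: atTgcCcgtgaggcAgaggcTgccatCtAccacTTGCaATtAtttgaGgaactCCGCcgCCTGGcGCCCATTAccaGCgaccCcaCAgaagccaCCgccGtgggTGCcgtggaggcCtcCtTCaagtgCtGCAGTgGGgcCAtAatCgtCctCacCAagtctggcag

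The M2 exon was included at 76.2% in library 1 and 73.5% in library 2, and the M1 exon at 19.2% and 20.8%. Among the transcripts holding the M2 exon was PKM-218, annotated as a decay target, with 59.6% and 56.8% of the TPM of PKM. The inclusion of the M2 exon was thus over 50 points higher in each library, while the libraries differed by under 3 points.

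TPM1, a tropomyosin, has exon 2a, typical of smooth muscle, and exon 2b, both of 126 bases on the plus strand of chromosome 15, at chr15:63043706-63043831 and chr15:63044027-63044152. They agree at 62 of 126 positions (49.2%), with the others in capitals.
TPM1 exon 2a: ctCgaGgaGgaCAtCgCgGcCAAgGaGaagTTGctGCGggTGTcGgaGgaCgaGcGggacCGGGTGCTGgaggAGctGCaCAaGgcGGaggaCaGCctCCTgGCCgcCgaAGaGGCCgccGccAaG
TPM1 exon 2b: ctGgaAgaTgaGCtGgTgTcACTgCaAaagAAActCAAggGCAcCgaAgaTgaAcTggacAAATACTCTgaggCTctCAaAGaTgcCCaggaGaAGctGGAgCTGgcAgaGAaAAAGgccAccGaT

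Exon 2a was included at 0.974% and 0.648% and exon 2b at 89.8% ± 0.386 (SD, n = 2). RAC1, a small GTPase of the cytoskeleton, included the 57-base exon of its RAC1b form at 17.2% and 19.4%. The exons of the clathrin light chain CLTA that are typical of neurons stood at 0.218% and 0.820% and at 0% and 0.249%.

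ITGA3, integrin alpha 3, included its 142-base exon at 97.9% in both libraries. Poison exons, which bring a stop codon into transcripts of splicing factors, were included at 21.1% and 18.6% in SRSF3 and at 13.7% and 13.1% in TRA2B. The alternative 67-base exons of U2AF1, a splicing factor that reads the 3′ splice site, stood at 83.1% and 83.1% and at 13.5% and 12.3%.

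Other exons differed widely. ENAH, an actin regulator, has a 63-base exon known as 11a and typical of epithelial cells, and its inclusion was 74.6% in library 1 and 37.5% in library 2. It lies at chr1:225504991-225505053 on the minus strand of chromosome 1.
ENAH 11a exon: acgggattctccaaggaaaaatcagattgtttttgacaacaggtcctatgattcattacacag

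The EDA exon of FN1, common in matrix-depositing cells, stood at 24.7% and 51.5%, its EDB exon at 9.53% and 18.7%, and the 72-base exon of the growth factor VEGFA at 53.2% and 5.21%. In ACTN1, alpha-actinin, the 66-base exon stood at 63.4% and 21.2% and the 81-base exon at 34.4% and 79.5%. Of the 27 exons followed in 19 genes, chosen after their values were seen, 20 differed by at most 10 points between libraries and 6 by more than 20 points. Several of the 27, such as those of CLTA and ITGA3, had a mean inclusion under 10% or over 90% and so little room to differ. Among all 17474 exons with a mean inclusion of 10 to 90% the share within 10 points was 66.9%, so the count is not read as a trait of the exons followed.

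**Figure D4:**
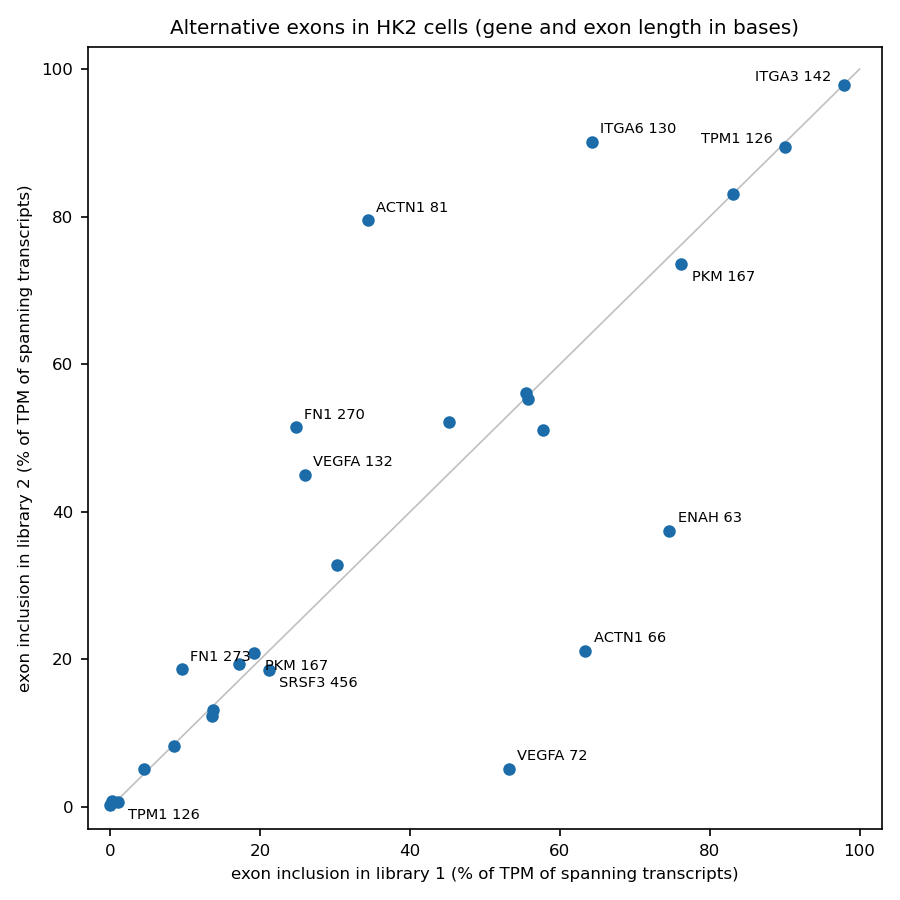
Inclusion of 27 alternative exons in library 1 (x axis) and library 2 (y axis), as percent of the TPM of the transcripts that span the exon, with a line of equality and labels that give gene and exon length in bases. Most points lie near the line, several of them at its ends where there is little room to differ, and exons of VEGFA, ACTN1, ENAH, FN1 and ITGA6 lie off it.

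Most protein-coding genes led with a transcript annotated as protein coding. Among 11439 genes whose dominant transcripts had an annotated type in both libraries, this held for 89.5% in library 1 and 89.2% in library 2. By level, transcripts annotated as protein coding took 82.5% and 82.2% of the TPM of protein-coding genes, retained-intron transcripts 7.64% and 7.91%, and nonsense-mediated decay transcripts 3.62% and 3.66%. The MANE transcript, the reference choice of the annotation, was dominant in 62.8% and 63.0% of 11066 genes.

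In 823 genes the dominant transcript was of another type than protein coding in both libraries, and these included GAPDH, ENO1, ACTB, RPL7A, PKM, FLNA, RPL4, TPM4, CALM2 and FSCN1, the 10 most abundant with the same one in both. GAPDH-208, annotated with a retained intron, held 62.2% and 62.4% of GAPDH, against 35.5% and 35.3% for the MANE transcript GAPDH-201. Of the 1333 bases of GAPDH-208, 90.3% lie in exons of GAPDH-201. ENO1-203 held 52.4% and 54.3% and shared 65.3% of its bases with ENO1-201. PKM-218, annotated as a decay target, held 59.6% and 56.8%, and FLNA-205 of filamin A 47.9% and 48.3%, with 94.8% and 98.5% of their bases in the MANE transcript. The MANE transcript of PKM held 0.238% and 0.0588%, and that of FLNA 1.26% and 1.33%. The same leader in both libraries was part of how these genes were chosen, and the shares of ACTB-206 (57.6% and 46.7%) and CALM2-203 (52.0% and 43.4%) moved between them. Whether reads over shared exons were assigned to the right transcript was not tested.

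CDKN2A, which encodes different cell cycle inhibitors from different first exons, used both of them. CDKN2A-214, with the p14ARF start, had 164 and 140 TPM, and CDKN2A-201, with the p16 start, had 127 and 150 TPM. Their starts lie in separate groups, at chromosome 9:21994391 and 9:21974856 in GRCh37, and each had an H3K4me3 peak within 1 kb in both ChIP-seq replicates.

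H3K4me3 marks the nucleosomes at active promoters, so the ChIP-seq peaks give a readout of starts that does not come from the RNA. Of the 7140 genes with 2 or more start groups and the same leader in both libraries, 92.9% had a peak within 1 kb of the leading start in ChIP-seq replicate 1 (Wilson 95% interval 92.3 to 93.5%) and 92.2% in replicate 2 (91.6 to 92.8%). Of 16317 other start groups of these genes, 1403 had a peak in replicate 1 (8.60%, 8.18 to 9.04%) and 2122 in replicate 2 (12.5 to 13.5%). These intervals treat start groups as independent, which those of a gene are not, and cover counting error only, not a spread between cultures. Position divided the other start groups too: of 1396 that were 5′-most, 58.2% and 60.7% had a peak, and of 14921 internal ones 3.95% and 8.55%. The 5′-most start group was the leader in 80.4% of these genes, and among leaders peaks stood at 97.0% and 96.3% of 5′-most leaders and at 76.1% and 75.7% of internal leaders. Among internal start groups the peak share was 2.33% and 6.01% where the group held more than 0 and up to 1% of the gene TPM, 12.1% and 16.5% at 10 to 50%, 65.8% and 65.4% at 50 to 90%, and 91.8% and 91.3% above 90%.

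**Figure D5:**
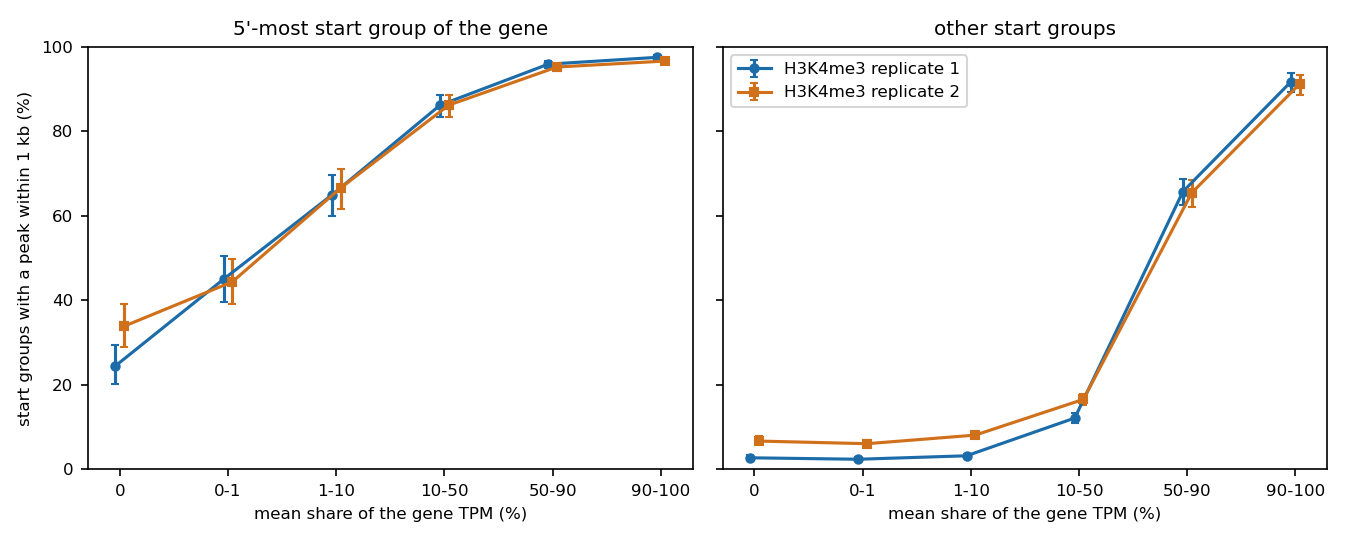
Percent of start groups with an H3K4me3 peak within 1 kb, by the mean share of the gene TPM that the group holds, for the 5′-most group of a gene (left) and all others (right), with Wilson 95% intervals and a line for each ChIP-seq replicate. Among internal groups the share with a peak stays under 10% up to a TPM share of 10% and reaches 91.8% and 91.3% above 90%.

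A peak at the leading start and at no other, in both replicates, was found in 4880 genes. The most abundant were FN1, PKM, PSAP (a lysosomal sphingolipid activator), TGFBI (a matrix protein) and LOXL2 (a collagen cross-linking enzyme). The opposite, no peak at the leading start and a peak at another start in both replicates, was found in 237 genes, and in 220 of these (92.8%) the leader was internal. Among the internal leaders were the start groups of PLXNB2-208, PTPRF-206, COL6A1-207 and TMBIM6-209, the last with 78.2% and 79.6% of its gene TPM. The leading start group of TSPAN3, that of TSPAN3-205, was 5′-most. In 1176 genes at least 2 start groups held 20% or more each in both libraries, and 138 of these had peaks at 2 or more such groups in both replicates. TPM1 was the most abundant of them, with 61.2% and 52.9% from its 5′-most start group and 37.2% and 45.5% from an internal one. HSP90AA1, a heat shock chaperone, gave 29.6% and 46.6% to its 5′-most group and 70.4% and 53.4% to the other.

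The libraries were then compared gene by gene. Of 16182 genes with a mean of at least 1 TPM, 861 (5.32%) differed by more than 2-fold, 464 (2.87%) higher and 397 (2.45%) lower in library 2. The median absolute log2 ratio was 0.17. Of the 861 genes, 703 also differed by more than 2-fold in the same direction by covered bases. The share was 2.57% of 12750 protein-coding genes, 14.3% of 1727 lncRNA genes and 31.2% of 112 snoRNA genes, with level not matched between these classes.

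Of 9933 genes with at least 10 TPM in both libraries, 79 (0.795%) differed by more than 2-fold, 53 of them also by covered bases. The 79 were 40 of 1783 genes whose dominant transcript differed (2.24%), 28 of 7484 whose dominant transcript was the same (0.374%) and 11 of 666 with a single transcript. The largest ratio by TPM was that of MYC, a growth-promoting transcription factor, with 15.8 and 140 TPM (log2 ratio 3.15). It was followed by DAG1 (dystroglycan) with 13.7 and 69.9 TPM and by TIMP2, a protease inhibitor, with 56.5 and 266 TPM. CCDC117 and RHNO1 completed the 5 highest by TPM. By covered bases the log2 ratio was 3.80 in DAG1, above the 3.56 of MYC. The same transcript led in both libraries in TIMP2, with 67.4% and 75.4%, and in CCDC117, with 82.0% and 94.7%. Another led in the others: the leader of library 2 went from 22.0% to 74.5% in MYC, from 2.60% to 75.1% in DAG1 and from 1.16% to 76.3% in RHNO1.

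IFI30, a lysosomal thiol reductase, was lowest by TPM in library 2 relative to library 1, with 302 and 56.0 TPM (log2 ratio -2.43). By covered bases AHNAK was lower than IFI30, with log2 ratios of -4.38 and -2.17. Also among the 5 lowest by TPM were RBM14-RBM4 (43.5 and 10.6 TPM) and B2M, the invariant chain of class I antigen presentation (294 and 91.8 TPM). The other members of that list were RN7SL2 (132 and 35.0 TPM) and RN7SL1 (105 and 28.1 TPM), RNAs of the signal recognition particle that carry no long poly(A) tail. Among genes with a matched type, 21 of 48 of the miscellaneous RNA class (43.8%) were over 2-fold apart, 10 higher and 11 lower in library 2. So were 16 of 36 snRNA genes (44.4%), 5 higher and 11 lower, and 35 of 112 snoRNA genes, 15 higher and 20 lower, beside 5.32% of all genes. The shares were above that of all genes and the directions mixed. Level was not matched, and of genes with at least 10 TPM in both libraries only 0.795% were over 2-fold apart, so no difference particular to these classes is read from this. The 1 scRNA gene had 0.818 and 4.94 TPM, from 336.7 and 1960.5 covered bases. Of other single RNAs, chosen after their values were seen, RN7SK had 31.2 and 12.4 TPM, RMRP 9.09 and 1.72 TPM and RPPH1 6.37 and 0.891 TPM. The library 2 values of RMRP and RPPH1 rest on only 0.0009 and 0.000589 Mb of covered bases. A pair of loci on chromosome 21 was also lower in library 2, FP236383.3 with 3742 and 1326 TPM and FP236383.2 with 1656 and 579 TPM. The study's methods describe removal of ribosomal RNA while the labels name messenger RNA, and neither gives a difference between the libraries.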

How the data were processed

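RNA was measured in 2 libraries of HK2 cells. Per the study's methods, RNA was depleted of ribosomal RNA, and trimmed reads were aligned with HISAT2 and assembled with StringTie, version 1.3.3 per the file headers. The authors deposited transcript lines with coverage, FPKM and TPM on GENCODE v27 (GRCh38), as other attribute text in 1 column, and H3K4me3 peak lists called per replicate with MACS2 on GRCh37 (hg19), the other column values of which are positions. The methods name hg19 for the RNA reads as well, whereas the transcript coordinates are those of GRCh38, which is the build given here. The coverage of 1 TPM gives the depth; the number of libraries limits the precision.

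Gene TPM was the sum over transcripts, and covered bases were coverage times transcript length. Gene and transcript types and GRCh37 starts came from GENCODE v44 lifted to GRCh37, matched by identifier: 55902 genes (95.9%) and 194137 transcripts (96.9%) matched, and others had no type. Promoters came from RefSeq (GRCh38.p14). Exon sequences came from GENCODE v44 transcripts of the same identifier, version and length. Python 3.11.15, pandas 2.3.3, numpy 2.4.6, scipy 1.17.1 and matplotlib 3.10.9 were used, and the code was checked on simulated data.

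The members and lists were chosen with earlier results of these data known. Named genes were the 20 most abundant genes, the first 3 of each type with at least 0.1% of TPM, those with the most transcripts in use, the largest and most abundant changes of dominant transcript, the most abundant with a dominant transcript that is not protein coding, the extreme library ratios, the most abundant in each peak class, and lists of markers, isoform genes and genes named by the study. No test was run, since there is 1 condition. Peak lists of other marks, input DNA and HiChIP were not used here, and certain genes and exons are not reported here. Alternatives were tried for 9 of the results and are given in the closing section, and other thresholds were used only as stated.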

Additional observations from a re-analysis of the deposited data

How the results depend on the processing

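The 9 results were recomputed under 45 alternatives, of which 26 stayed within a set limit. For counts the limit was 1.5 times, which is wider than the spread between replicates. For the share of genes with the same dominant transcript it was the Wilson interval, and for the other shares and medians the spread between replicates. Leaving out 1 replicate gives the values that set the spread for the other shares and medians, so those alternatives could not leave it. The share of protein-coding genes was 97.8% by covered bases and 95.9% without transcripts under 200 nt, and that of the 10 most abundant genes was 6.65% by covered bases. The same dominant transcript was found in 75.3% of genes with no filter, 80.8% at 10 TPM or more, and 83.5% and 83.7% of genes whose dominant transcript led by 10 points in library 1 or in library 2. The median dominant share was 67.9% with no filter and 62.7% at 10 TPM or more. Genes with at least 2 transcripts in use fell to 2861 at a share of 20%. A protein-coding dominant transcript was found in 87.8% with no filter, 90.8% at 10 TPM or more and 91.3% by covered bases. The leading start had a peak in 92.1% within 500 bp, 92.0% with starts at least 10 kb apart, 94.2% at 10 TPM or more and 91.0% where both replicates were required. Genes over 2-fold apart were 193 at a mean of at least 5 TPM and 6024 with no filter and a pseudocount of 0.1 TPM. With mitochondrial genes left out, both TPM shares were as before, because these genes are listed at 0. With each library alone, between 16176 and 16291 genes reached 1 TPM and between 9083 and 9117 genes had at least 2 transcripts in use. No paired analysis was possible because the result comes from no test. The number of libraries limits every statement on spread, low genes have the widest ratios, and transcript levels are estimates from reads that several transcripts share.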

Other observations

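Transcript use was read for genes that the study named. ITGA3, an integrin subunit, gave 84.8% of its TPM to ITGA3-202 in library 1 and 84.6% in library 2. GLUD1, glutamate dehydrogenase, was nearly a gene of 1 transcript, with GLUD1-201 at 98.8% and 99.1%. DAB2, an endocytic adaptor, gave 71.3% and 69.1% to DAB2-201. MTX1, a mitochondrial import protein, gave 32.3% and 30.6% to MTX1-202, and NUDT7, a peroxisomal hydrolase, 35.2% and 40.2% to NUDT7-205. WWOX, an oxidoreductase of 18.5 and 16.2 TPM, kept its leader WWOX-214, whose share of 42.9% in library 2 was 15.9 points above that in library 1. The leader changed in THBS3, a thrombospondin, from THBS3-210, with 24.2% in library 1, to THBS3-201, with 20.9% in library 1 and 26.9% in library 2, and in ENAH from ENAH-204 (55.5% and 5.52%) to ENAH-203 (2.82% and 57.5%).

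Further genes with well-known forms were read at the transcript level. MCL1, a survival protein, gave 93.6% and 95.3% to MCL1-202. BCL2L1, of the same family, gave 40.6% and 63.3% to BCL2L1-201. CD44, a hyaluronan receptor, had 142 and 180 TPM, and CD44-201 was its leading transcript with 48.4% and 39.4%. TPM3, another tropomyosin, changed its leader, with TPM3-205 at 23.9% and 66.2% and a gene level of 197 and 511 TPM.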
